A study of Xenopus tropicalis with 40 samples.

Results

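The genes of the Wnt pathway were described in the transcript catalogue of Xenopus tropicalis, the western clawed frog, during embryonic development. Members were all annotated genes whose symbol starts with wnt, fzd, sfrp, dkk, dvl, axin, tcf7 or lef1, together with ctnnb1, gsk3b, apc, lrp5 and lrp6. The rule found 30 of the 8329 annotated genes, with 296 of the 159469 transcripts in the catalogue. They were 9 Wnt ligands, 7 frizzled receptors, 6 secreted inhibitors, 3 dishevelled genes, ctnnb1 and 4 TCF/LEF genes. The catalogue was pooled over 40 libraries of polyadenylated RNA from whole outbred embryos. These span 23 stages from the 2-cell embryo to the tadpole of stages 44 and 45, in 2 clutches of 16 and 24 libraries, with 13 stages in both. No value belongs to a stage, a clutch or a library, so the data give the shapes of transcripts and no expression level, no replicate and no test between groups. Of 22 names of tissue marker genes, 19 had a model here, and all 19 had at least 1 assembled multi-exon isoform.

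Wnt proteins are secreted ligands that bind frizzled receptors at the cell surface, with the co-receptors lrp5 and lrp6 in the canonical branch. Secreted frizzled-related proteins bind Wnt ligands outside the cell, and several Dickkopf proteins bind the co-receptors instead. Dishevelled carries the signal inside the cell, where a complex that contains axin, apc and gsk3b otherwise marks β-catenin (ctnnb1) for destruction. Stabilised β-catenin joins TCF/LEF factors on DNA. In frog embryos the pathway is known for setting the dorsal axis before gastrulation and the posterior axis afterwards, and its non-canonical branch for the cell movements of gastrulation.

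The RefSeq gene table of assembly UCB_Xtro_10.0 lists 54 symbols that meet the same rule. All 30 genes with a model here were among them, counting wnt11r and wnt11 of the gene models, which are older names of the RefSeq genes wnt11 and wnt11b. The other 24 symbols had no model under their name. They included the destruction complex genes apc, axin1, axin2 and gsk3b, the co-receptors lrp5 and lrp6, and 12 of the 21 Wnt ligand symbols. Of the 30 symbols with a model, all 30 had a curated RefSeq transcript accession, against 1 of the 24 without, wnt4. Transcripts of unnamed loci were not searched for these genes, so the lack of a model is a statement about symbols and not about expression.

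An isoform was counted here as an assembled transcript with at least 2 exons whose class code places it on the gene's own strand. The classes counted were a new splice junction chain, the annotated chain, or another overlap with an annotated exon. By this rule the count includes 2 models of wnt11 that lie on the opposite strand to its others, described below. The members had 260 isoforms, of which 2 had exactly the annotated chain of exons. At least 2 isoforms were found for 25 of the 30 members (83.3%, Wilson 95% interval 66.4 to 92.7%), against 79.2% of all annotated genes. The median was 4 isoforms per member and 5 per annotated gene, and the median of the largest exon number was 5 among members and 9 among all genes. A total of 20 or more isoforms was reached by 3 members, tcf7l2, ctnnb1 and dvl3, against 11.1% of all genes. These 3 genes held 132 of the 260 isoforms (50.8%). The roles differed in this number. The median was 3 isoforms for the ligands, 3 for the receptors, 6 for the secreted inhibitors, 13 for the dishevelled genes and 10.5 for the TCF/LEF genes. The roles also differed in exon number, and the median of the largest exon number was 5, 3, 4, 16 and 12.5 in the same order.

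**Figure D1:**
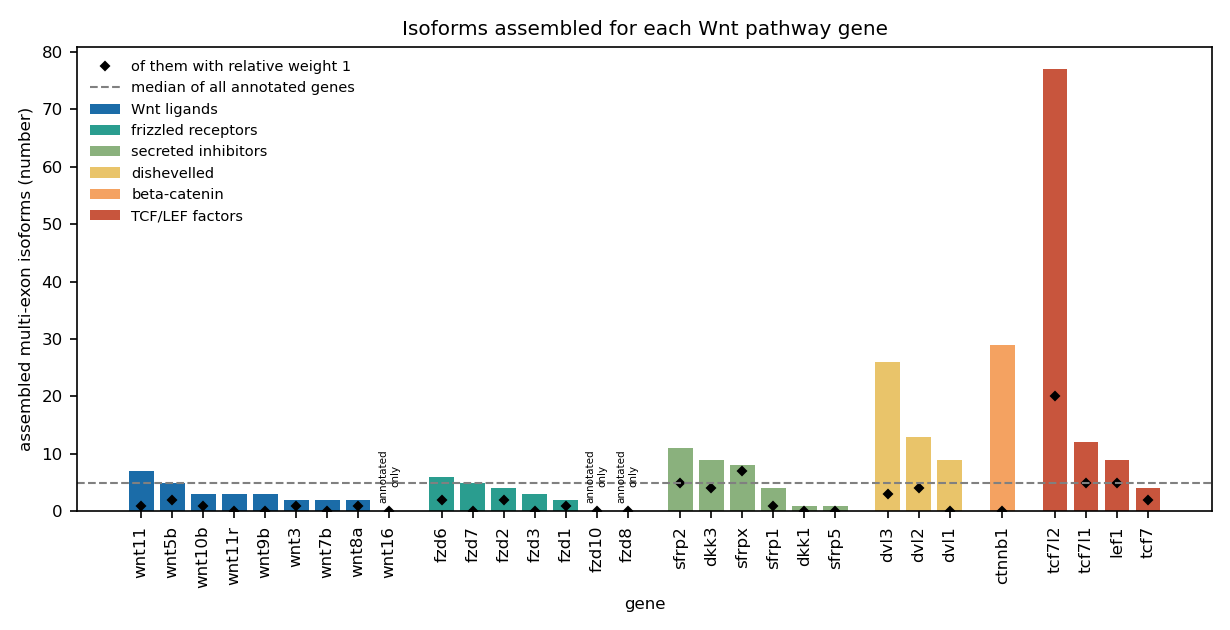
Bars give the number of assembled multi-exon isoforms of each of the 30 Wnt pathway genes, grouped by role, diamonds give those with a relative weight of exactly 1 in the authors' deposited table, and the dashed line marks the median of all annotated genes, 5. The bar of tcf7l2 reaches 77 and those of ctnnb1 and dvl3 reach 29 and 26, while no ligand or receptor exceeds 7, and wnt16, fzd10 and fzd8 have none.

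The other structural shares of the members lay near those of the catalogue. Separate first exons, meaning first exons that do not overlap each other, numbered at least 2 in 15 of the 30 members (50%, Wilson interval 33.2 to 66.8%), against 61.2% of all genes. At least 3 were found in 9 members, against 35.8% of all genes. Of the 71 separate first exons of members, 14 had at most 11 bases in their longest form. A skipped exon, an inner exon that lies within an intron of another transcript of the gene, was present in 15 members, against 62.9%. An antisense transcript, meaning one that the deposited class codes mark as overlapping exons of the gene on the opposite strand (class x), was present for 8 members (26.7%, Wilson interval 14.2 to 44.4%), against 22.1%. Counting exon overlap with models on the opposite strand, whatever their class, added fzd3, dkk3 and dvl2, which makes 11 members, against 39.7% of all genes. Not counted was wnt11, whose exon overlap is between models that both carry its own symbol. Only an annotated model, with no assembled isoform, was present for wnt16, fzd10 and fzd8, which is 3 of 30 members (10%, Wilson interval 3.46 to 25.6%) against 10.7%. No member lay in a locus that joined several annotated genes, which allows a share of up to 11.4% by the Wilson interval, against 7.84% of all genes. The intervals cover counting error only, and those given here contain the share of all genes.

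Among the ligands, wnt11 had the most isoforms by class code, 7. Those on the minus strand alone numbered 5, as many as wnt5b had. In Xenopus laevis a maternal Wnt11 acts in dorsal axis formation, and Wnt11 ligands act in the movements of gastrulation. On the minus strand of scaffold GL172753, from 1314477 to 1329489, 5 isoforms with up to 7 exons were assembled from 5 separate first exons, each used by 1 transcript. Of these first exons, 2 had only 9 and 8 bases. The other 2 isoforms lay on the plus strand of the same stretch, from 1322056 to 1329583, with 3 exons each, and shared no intron with the first 5. They carried the symbol wnt11 and a class code of its own splice variants, although they lie on the opposite strand. Such models on both strands of a stretch occurred in 4 of the 8329 annotated genes. The 3′ part of wnt11 also held introns of 22 and 21 bases. Introns shorter than 30 bases made up 3 of the 393 distinct introns of members, the third being a 9-base intron of fzd2, and 582 of the 149182 of all genes.

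The gene wnt5b, a ligand of the non-canonical branch, had 5 isoforms over 84681 bases of scaffold GL172977, with a longest intron of 64388 bases. Of its 3 first exons, the most upstream was used by 3 transcripts and those 56239 and 80152 bases downstream by 1 each. The last of these had 8 bases. The gene wnt11r, known in frogs for neural crest and heart development, had 3 isoforms and 3 first exons spread over 15916 bases. The genes wnt10b and wnt9b had 3 isoforms and a single first exon each, and 1 isoform of each had exactly the annotated chain. The remaining assembled ligands wnt3, wnt7b and wnt8a had 2 isoforms each. The transcripts of wnt8a, the zygotic ligand known for patterning ventral and lateral mesoderm, all began in the same first exon, and an inner exon had 143 bases in 2 transcripts and 136 in 1.

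The genes wnt3 and wnt9b lay side by side on scaffold GL172679, wnt3 on the minus strand from 767450 to 782056 and wnt9b on the plus strand from 792417 to 801689. They pointed away from each other across 10360 bases with 0 annotated genes between them, and the RefSeq table also lists 0 protein-coding genes between the pair. The model of wnt16, from 1966985 to 1981339 on GL172757, held 4 exons and 1131 bases, and no assembled isoform was attached to it.

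The symbol wnt7b stood at 9 separate places. A locus on GL173770, from 117830 to 140106 on the minus strand, held its 2 assembled isoforms with up to 3 exons. The other 8 were annotated models of a single exon of 137 bases each, on 7 scaffolds, with 2 of them on GL173703. Annotated models at 5 or more places were found for 14 of the 8329 genes. Whether the 8 models hold the same sequence was not examined here.

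Among the receptors, fzd6 had 6 isoforms, fzd7 5, fzd2 4, fzd3 3 and fzd1 2. A terminal exon of at most 11 bases was present in 2 of the 5 isoforms of fzd7 and in 1 each of fzd6 and fzd3. The genes fzd3 and fzd6 had up to 9 and 8 exons and shared a pair of successive inner exons of 1018 and 149 bases. No other locus in the catalogue had this pair of lengths in succession. The pair stood in succession in only 1 of the 3 isoforms of fzd3 and in 4 of the 6 of fzd6. In fzd6 the 1018-base form was used by 4 of 5 spanning transcripts. The 3 assembled genes fzd7, fzd2 and fzd1 had at most 4 exons, and 10 of their 11 isoforms were of the class that overlaps an annotated exon without following its junctions. The models of fzd10 and fzd8 had 1 exon, of 3211 bases on GL173213 and 3123 bases on GL172769. A sense transcript of that single exon would not be counted as an isoform, which needs at least 2 exons. Assembled transcripts of 1 exon on the gene's own strand numbered 0 at both genes, and also at every other member.

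Antisense transcripts of class x were found at 4 of the 7 frizzled genes, fzd1, fzd2, fzd7 and fzd8 (57.1%), against 22.1% of all genes, and fzd3 had only exon overlap with a model on the opposite strand that was not of this class for fzd3. The 4 frizzled genes in which no model had an annotated junction were fzd1, fzd7, fzd8 and fzd10, and 3 of these had antisense transcripts, against 53 of the 240 such genes in the catalogue (22.1%). The groups are too small for a share, and the genes were noticed after these counts had been seen. The dUTP step of the library protocol marks the second strand, and the models give a strand for each transcript. How completely the mark was kept was not tested.

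The share of antisense bases over sense exons was 94.8% or more at fzd2, fzd7 and fzd8 and lower at fzd1. At fzd7, 3 antisense transcripts of 3733, 4317 and 3536 bases had 98.3%, 100% and 100% of their bases over sense exons. Of these, 2 ended at 1732071, the first base of a sense first exon, and had introns of 150 and 918 bases that lay inside sense exons. The other had an intron of 21101 bases and reached 19733 bases beyond the gene. At fzd2 a single antisense transcript of 3006 bases had both ends on the first and last bases of sense transcripts, 297207 and 300369, and 94.8% of its bases over sense exons. At fzd8, for which no sense isoform was assembled, an antisense transcript of 2386 bases lay over the annotated exon with end differences of 12 and 20 bases and an overlap of 99.5%. At fzd1, the 2 antisense transcripts had 50.9% and 60.7% of their bases over sense exons, and each had a terminal exon of 8 bases. None of these 7 transcripts shared an intron with the sense strand.

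**Figure D2:**
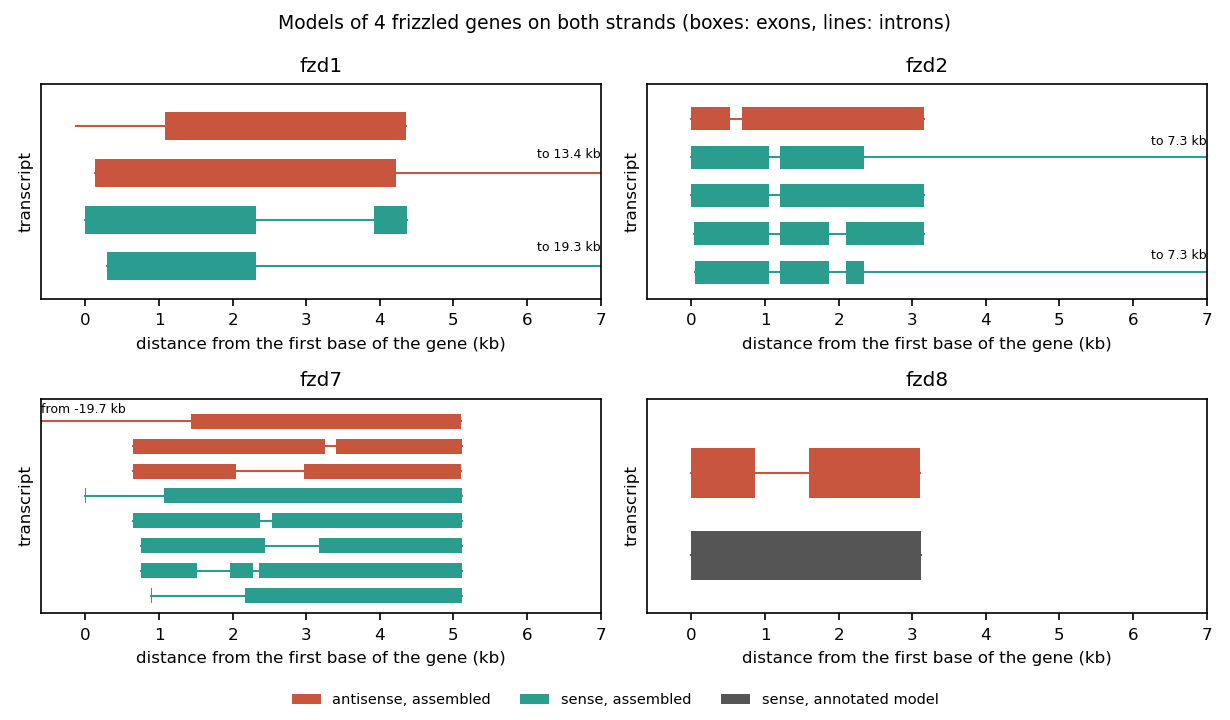
Each row is a transcript model of fzd1, fzd2, fzd7 or fzd8, drawn in kb from the first base of the gene, with antisense assembled, sense assembled and sense annotated models in different colours. Boxes are exons and lines are introns, and models that run past the panel carry their end in kb. The antisense model of fzd8 lies over the annotated exon and that of fzd2 shares both ends with a sense model, while 1 antisense model of fzd7 and 1 of fzd1 run past the panel.

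The other members with antisense transcripts of class x were wnt7b, sfrpx, sfrp1 and tcf7l1. All 13 transcripts of this class at members had 2 exons, and none shared an intron with its sense gene. The share over sense exons was 85.4% at wnt7b, 93% at sfrpx and 95.8% at sfrp1, with 1 transcript each. At tcf7l1, 3 antisense transcripts that all ended at 2719448 had 67.1%, 82.4% and 43.7% of their bases over sense exons. A further 5 opposite-strand transcripts with 5 to 7 exons lay at dvl2, in the class whose introns overlap annotated introns on the other strand. They had 66.4 to 69.3% of their bases over exons of dvl2, ended at the first base of that gene, 279961, and shared 0 introns with it.

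Among the secreted inhibitors, sfrp2, a secreted frizzled-related protein, had 11 isoforms with up to 4 exons, which placed it 19th of the 589 genes with 4 exons, whose median was 2. Its isoforms differed in their first, inner and last exons. The first inner exon began at 5 positions and was 552 to 671 bases long in the 10 transcripts that kept its usual 3′ end. An 81-base exon, a multiple of 3, was included by 6 transcripts and skipped by 5. In 4 of the 11 isoforms a terminal exon had at most 11 bases, and all 4 were among those that skipped the 81-base exon. The gene dkk3, of the Dickkopf family, had 9 isoforms, 6 first exons and 7 skipped exons by exact ends, 5 of them with lengths divisible by 3. The forms of 93 and 90 bases belong to the same exon. All 7 lay in the 12273-base intron of 1 transcript of 2 exons, whose first exon had 10 bases. The 81-base and 136-base exons of dkk3 were each included by 5 and skipped by 2 transcripts, that transcript among them. It alone skipped the others. Of the 8 isoforms of sfrpx, 7 had a relative weight of 1, more than in any other member but tcf7l2. An inner exon of sfrpx was 2565 bases in 3 transcripts and 2581 in 3 others.

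The gene sfrp1 had 4 isoforms over 48652 bases with an intron of 38832 bases. The 4 isoforms started in the same first exon. An isoform of dkk1, the head-inducing inhibitor of frog embryos, was assembled once beside its annotated model, with a first exon 427 bases downstream of the annotated one. The gene sfrp5 likewise had 1 isoform. The genes sfrp1 and tcf7l1 stood on the same strand of scaffold GL172666, 171989 bases apart with 4 annotated genes between them, where the RefSeq table lists 9 protein-coding genes.

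The dishevelled genes dvl3, dvl2 and dvl1 had 26, 13 and 9 isoforms. Among genes with the same largest number of exons, dvl1 was 96th of 204, where the median was 9. In the same comparison dvl2 was 81st of 347, where it was 7, and dvl3 was 30th of 182, where it was 10. The 7 first exons of dvl3 began up to 65584 bases apart. The most upstream was used by 12 transcripts, while that 53505 bases downstream, of 8 bases, was used by 5. In 8 of its 26 isoforms a terminal exon had at most 11 bases. Without such transcripts dvl3 had 18 isoforms.

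In the 5′ part of dvl3, an exon of 107 bases was present at 2 positions of scaffold GL172768, 288004 to 288110 and 303509 to 303615, whose starts are 15505 bases apart. Between the 122-base exon before them and the 136-base exon after them, 3 of 11 transcripts had the first of these exons and 3 had the second. Another 3 joined 68 bases of the first position to the last 39 bases of the second, which again makes 107 bases. The last 2 joined the same 68 bases to 42 and 44 bases. No transcript held both 107-base exons. Whether the 2 positions hold the same sequence was not examined here.

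In dvl1, a 48-base exon near the 3′ end was included by 3 and skipped by 3 of 7 spanning transcripts, with a 42-base form in the other. An exon of 150 bases in 5 transcripts had a form of 78 bases in 2, which is 72 bases shorter. In dvl2 the first inner exon was 91 bases in 8 transcripts, 85 in 2 and 82 in 2. Another exon was 77 bases in 10 transcripts and 80 in 2. Each of these differences in dvl1 and dvl2 is a multiple of 3, but they are examples and other forms differed otherwise. A further exon of dvl2 was 1603 bases in 2 transcripts and 435 in 2, a difference of 1168 bases. In dvl3 an exon was 402 bases in 15 transcripts and 424 in 6, a difference of 22 bases. Neither is a multiple of 3. Over all members, 17 of 38 such pairs with at least 2 transcripts each differed by a multiple of 3.

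The gene ctnnb1 encodes β-catenin, which acts both at cell contacts and in the nucleus. It had 29 isoforms with up to 18 exons on scaffold GL173301, from 114344 to 143492, 17th of the 163 genes with that exon number, whose median was 11. None of the 29 had a relative weight of 1. This also held for the isoforms of wnt11r, wnt9b, wnt7b, fzd7, fzd3, dkk1, sfrp5 and dvl1. No annotated model of ctnnb1 was present, as for the dishevelled and TCF/LEF genes and several other members. Of 6 first exons, that at 120940 was used by 19 transcripts, an 8-base one at 133702 by 6, and the other 4 by 1 each. A 54-base exon was included by 19 and skipped by 4 of the 23 transcripts that span it. The next exon had 228 bases in 11 of 29 transcripts and 225 bases in 7, from 5′ ends 3 bases apart, and was skipped whole by 7. Skipped exons numbered 38 in ctnnb1 by exact ends, more than in any other member, with 17 divisible by 3. The 254-base and 239-base exons that follow were each skipped by 8 transcripts. The skips of these exons and of the 228-base exon are not separate choices. In each case 6 of them are the transcripts whose 8-base first exon at 133702 joins a 126-base exon form farther downstream. The 122-base exon toward the 3′ end was skipped by 0 and kept with its usual ends by 26.

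The TCF/LEF factors bind DNA and recruit β-catenin to its target genes, or repress them without it. The gene tcf7l2 had 77 isoforms with up to 16 exons on scaffold GL173130, from 289378 to 431233, which was rank 64 of all 8329 genes and rank 3 of the 204 genes with 16 exons, whose median was 9. All 77 isoforms had a different chain of junctions, and 20 had a relative weight of 1. In this gene only 2 isoforms had a terminal exon of at most 11 bases, against 38 of the 260 isoforms of all members (14.6%) and 16.8% of all isoforms of annotated genes.

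The transcripts of tcf7l2 began in either of 2 regions. In the upstream region, 41 of the 77 began at 2 first exons 256 bases apart, which were used by 2 and 39 transcripts. The other 36 began 105098 to 107945 bases farther downstream, in first exons used by 7, 10, 1 and 18 transcripts. The downstream transcripts lacked the first 4 inner exons. Among the 40 upstream transcripts that span a 57-base exon, 23 included it and 17 skipped it.

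**Figure D3:**
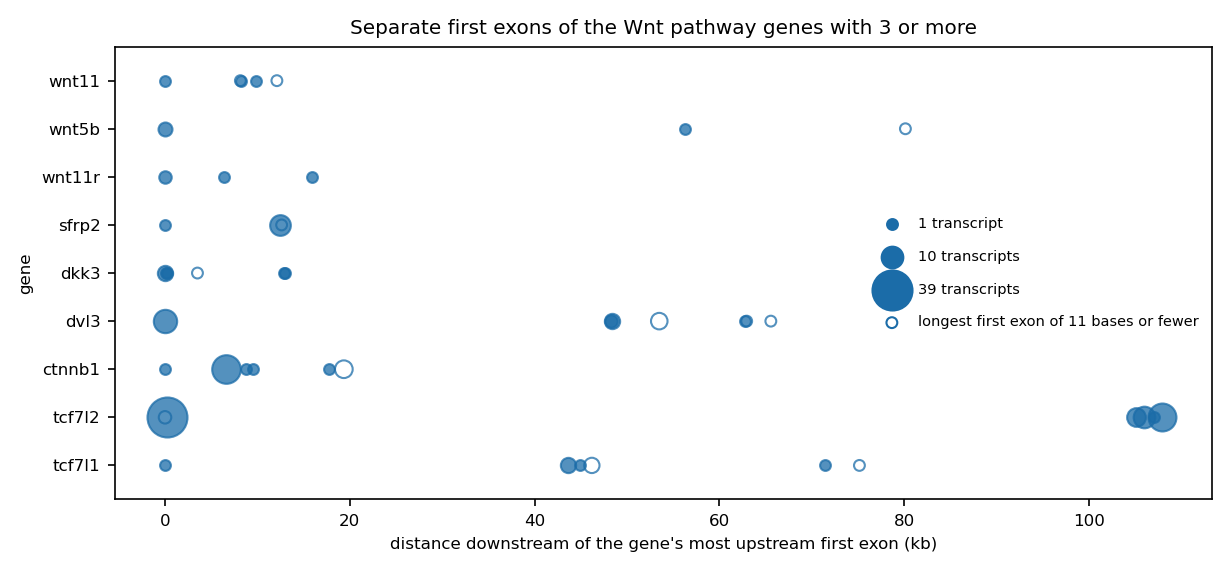
Each circle is a separate first exon of a Wnt pathway gene with at least 3 of them, placed at its distance in kb downstream of the gene's most upstream first exon, with an area that grows with the number of transcripts. Open circles mark groups whose longest first exon has 11 bases or fewer. The first exons of tcf7l2 lie in 2 regions, the second starting 105098 bases downstream, while those of ctnnb1 lie within 19358 bases.

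Next, 3 inner exons of tcf7l2 each had 2 well-used forms. The exon at 405230 was 103 bases in 47 transcripts and 91 bases in 28, a difference of 12 bases at its 3′ end. The exon that ends at 411228 was 141 bases in 31 transcripts and 126 in 45, a difference of 15 bases at its 5′ end. The exon at 412755 was 120 bases in 23 transcripts and 108 in 50, a difference of 12 bases at its 3′ end. All 3 differences are multiples of 3. The long and short forms of the first and second of these exons occurred together in each combination, with long and long in 17 of 75 transcripts, long and short in 30, short and long in 13, and short and short in 15. Among 70 transcripts with a form of each of the 3 exons and the 49-base exon after them, all 8 combinations occurred, in 4 to 19 transcripts. Some rarer exon forms of tcf7l2, of 2 transcripts each, differed from the main forms by other amounts. They were 67 against 69 bases, 89 against 108 and 120, and 50 against 49, none by a multiple of 3.

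**Figure D4:**
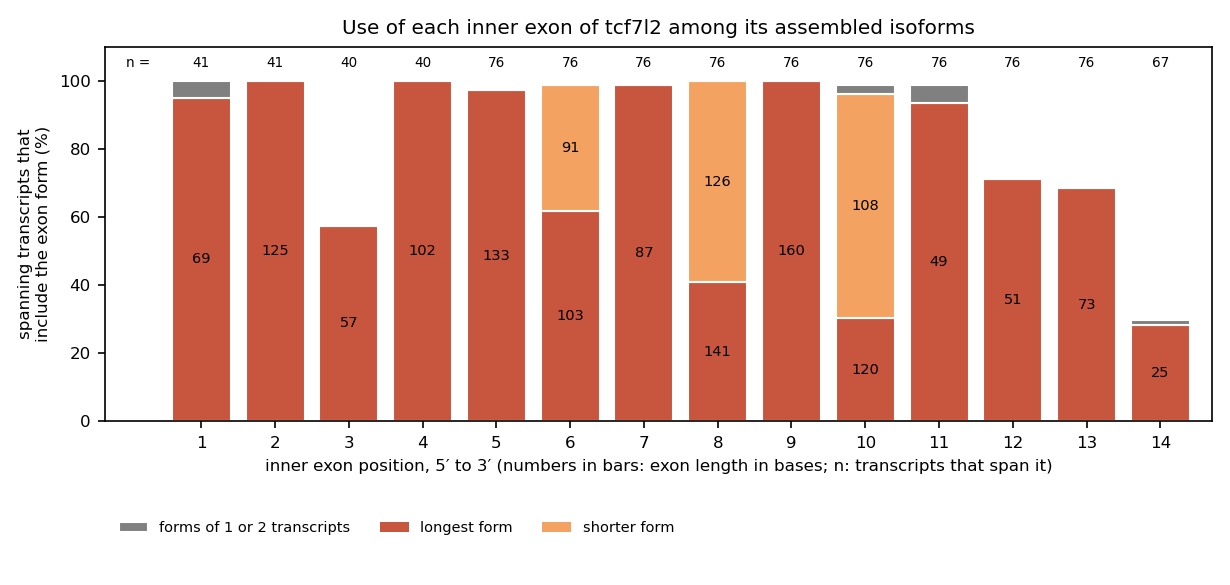
Stacked bars give, for each inner exon of tcf7l2 from 5′ to 3′, the percentage of spanning transcripts that include each form, with the exon length in bases inside the bar and the number of spanning transcripts above it. The exons of 57, 51, 73 and 25 bases are left out by part of the transcripts, and the 6th, 8th and 10th inner exons each have 2 forms that share the transcripts.

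Downstream of the 49-base exon, which 71 of the 77 isoforms carried, exons of 51, 73 and 25 bases were optional. The 51-base exon was included by 54 and skipped by 22 transcripts, the 73-base exon by 52 and 24, and the 25-base exon by 19 and 47. After the 49-base exon, the chain of 51 and 73 was found in 24 transcripts, 51 alone in 12, 73 alone in 12, all of 51, 73 and 25 in 9, 51 and 25 in 4, 73 and 25 in 4, and none of them in 6. The last exon was 954 bases in 49 transcripts and 951 in 16, with 5′ ends 3 bases apart, while 9 transcripts ended in an exon of 71 bases and 2 in an exon of 109. The 51-base exon alone is a multiple of 3. In the 61 transcripts that had the 49-base exon and a last exon of 954 or 951 bases, the optional bases between them left the last exon in the same frame as with none in 15, shifted by 1 base in 34 and shifted by 2 bases in 12. Counting the 3 exons with 2 forms, the tail and the last exon together, 46 combinations were found among the 70 transcripts.

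The fragments sequenced were 300 to 600 bases long, per the labels' protocol. Choices farther apart than that along a transcript cannot be read from a single fragment. The catalogue therefore does not show that such choices occur together in the same molecule. For this reason the number of whole isoforms, and of combinations of distant choices, says less than the counts of each choice.

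The gene tcf7l1, a factor that in Xenopus is known as a maternal repressor of Wnt targets, had 12 isoforms and 6 first exons. Of its first exons, 2 were used by 4 transcripts each, at 43645 and 46207 bases from the most upstream one. The one at 46207 had 8 bases. Its 144-base exon was included by 10 and skipped by 2 transcripts. A terminal exon of at most 11 bases was present in 5 of the 12. The gene lef1, a factor that mainly acts as an activator, had 9 isoforms, of which 8 began in the same first exon. A 123-base exon of lef1 was included by 6 and skipped by 3 transcripts. A later exon was 44 bases in 6 transcripts, 38 in 2 and skipped in 1. The gene tcf7 had 4 isoforms from a single first exon, over 78952 bases, and no skipped exon. Among the 400 genes with their exon number, whose median was 7, lef1 was 144th and tcf7 284th. By the same measure tcf7l1 was 91st of 347, where the median was 7.

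The paralogs shared runs of inner exon lengths. The dvl1 and dvl3 genes shared 7 successive inner exons of 70, 140, 77, 68, 150, 132 and 168 bases, and no other locus in the catalogue held this run. It was present in 4 of 9 isoforms of dvl1 and 16 of 26 of dvl3. The gene dvl2 shared the first 4 of these lengths, in 9 of its 13 isoforms, and these 3 loci were the only ones with the 4 lengths in succession. In the TCF/LEF genes the pair of 108 and 49 bases was present in all 4 genes and at 11 loci in the catalogue. The exon before this pair was 160 bases in tcf7l2 and tcf7l1 and 163 bases in lef1 and tcf7, and each of the 2 runs of 3 was found at those 2 loci only. The short 108-base form of tcf7l2 was the one whose length the paralogs have. Of the first exon with 2 forms, the 103-base form had the length of the main form in tcf7l1 (5 of 11 spanning transcripts) and the 91-base form that in lef1 (9 of 9) and tcf7 (4 of 4).

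Among the 73 pairs of members of the same family, 6 shared a run of 3 or more inner exon lengths and 10 a run of 2 or more. Among the 362 other pairs, 0 and 1 did. A single shared length and no longer run was found in 7 pairs of the same family and 49 other pairs, and these lengths were not read further. Equal lengths are a description of the models, since no sequence was compared.

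**Figure D5:**
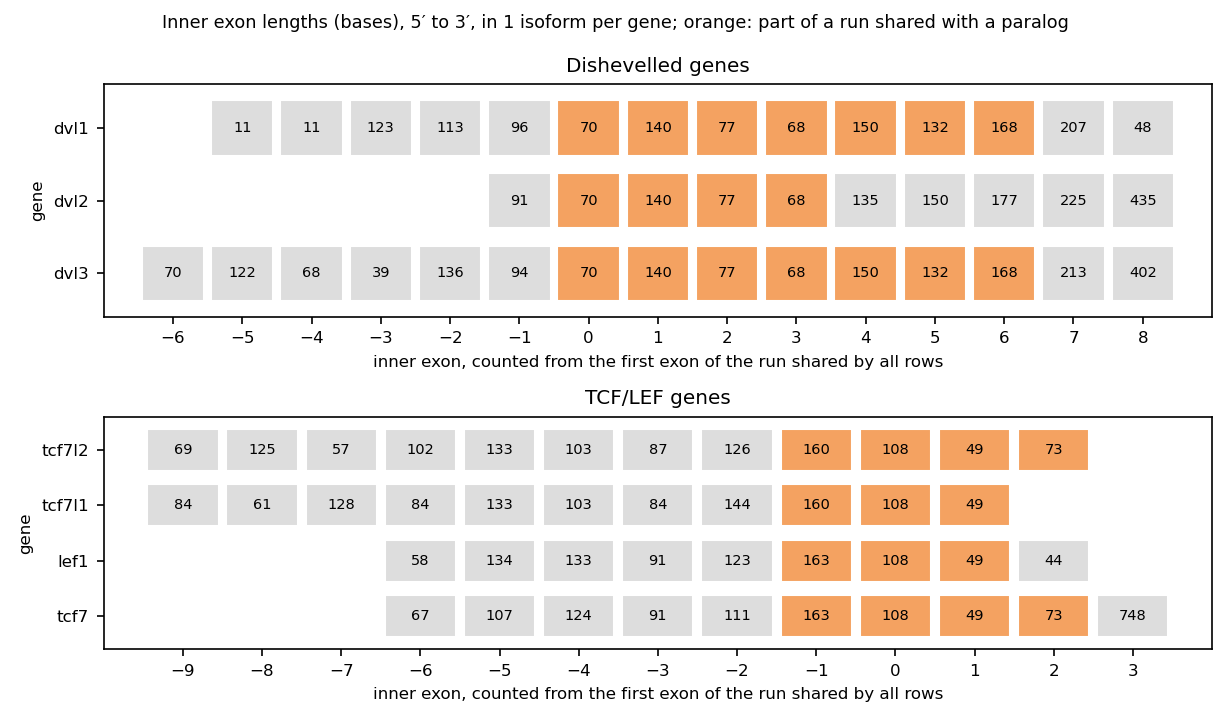
Inner exon lengths in bases are shown 5′ to 3′ for 1 isoform of each dishevelled and TCF/LEF gene, chosen for holding the shared run and otherwise recurring exons, and aligned at the run that all rows share. Orange boxes belong to a run shared with a paralog. The 7 lengths of dvl1 and dvl3 match, dvl2 matches in the first 4, and 108 and 49 recur in all 4 TCF/LEF genes.

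Over all members, 49 of 112 skipped exons had a length divisible by 3 (43.8%, Wilson interval 34.9 to 53%), with a median length of 91 bases. Exons were counted by exact ends, so overlapping forms of the same exon count separately, and ctnnb1 alone gave 38 of the 112. Among constitutive exons, which every spanning transcript includes, 15 of 53 were divisible by 3 (28.3%, Wilson interval 18 to 41.6%), with a median of 132 bases. In the whole catalogue 40% of 42997 skipped and 37.6% of 28290 constitutive exons of annotated genes were divisible by 3. With at least 2 transcripts that include and 2 that skip the exon, the share was 20 of 38 among members (52.6%, Wilson interval 37.3 to 67.5%) and 42.9% among all genes. The intervals of members contain the shares of all genes, and exons of 1 gene are not independent. Of 38 pairs of exon forms that differ at 1 splice site and had at least 2 transcripts each, 17 differed by a multiple of 3 (44.7%, Wilson interval 30.1 to 60.3%) and 18 by at most 15 bases. These pairs lay in 9 members. Pairs among several forms of the same exon depend on each other, which the interval ignores. The share was not set beside one of all genes.

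Of 111 names of other Wnt pathway genes, 64 had a model. Of these 64, 53 had at least 2 isoforms and 39 at least 2 first exons, against 79.2% and 61.2% of all annotated genes. An antisense transcript was present for 19 and only an annotated model for 5, against 22.1% and 10.7%. The median of the 64 was 6 isoforms, against 4 for the 30 members and 5 for all annotated genes. In ligand secretion and modification, porcn had 25, notum 24 and wls 1 isoforms. The non-canonical receptors ror2 and ryk had 18 each and lgr4, a receptor of R-spondins, had 5. Among agonists and receptor turnover, the ubiquitin ligase znrf3 had 12, rspo2 6 and rspo3 5. Of other secreted or surface antagonists, kremen2 had 34 and frzb 5, and frzb2, kremen1 and wif1 had 4 each. In planar polarity, vangl2 had 14, prickle2 7 and prickle1 6. The cytoplasmic genes btrc, which encodes the ubiquitin ligase subunit that recognises phosphorylated β-catenin, ctnnd1 and csnk1a1 had 70, 65 and 30. Of nuclear cofactors, the Groucho family genes tle2 and tle4 had 84 and 41, and ruvbl2 had 31. Among targets known in frog embryos, ccnd1 had 7, and fgf8 and t, which encodes Brachyury, had 5 each.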

How the data were processed

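Polyadenylated RNA of 40 whole-embryo libraries was sequenced with strand-marked libraries, per the labels' protocols. Per the submitters' processing notes, Bowtie, TopHat and Cufflinks were used. No source used here names the versions, the genome build or the annotation. The authors deposited 1 pooled catalogue: gene models with scaffold, strand and exon ends, and a tracking table. Its column headed FPKM is a score deposited by the authors that never exceeds 1, called the relative weight here, and it is no abundance. The deposited coverage is a signal and not read depth, so the depth of the libraries is unknown. Coding ends equal transcript ends in the models, which leaves untranslated regions unmarked.

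Positions are counted from 1. Class codes follow Cufflinks. First exons and skipped exons were called from exon ends of all own-strand transcripts with at least 2 exons, and a constitutive exon needed at least 3 spanning transcripts. Shares carry Wilson intervals at 95% from statsmodels 0.14.6 under Python 3.11.15. The event rules were tested on toy models with known answers. No test was run, since no value has replicates. Full values were given for the 3 members per role with the most isoforms and for every member with an antisense transcript, with at least 3 first exons or with only an annotated model. Of other pathway genes the 3 with the most isoforms per group were named. The members and lists were chosen with earlier results of these data known. The shared exon lengths, the dvl3 exon copies, the wnt7b copies, the models of wnt11 on both strands, the gene neighbours and the tcf7l2 combinations were chosen after their values were seen. RefSeq names and neighbours came from the table of assembly UCB_Xtro_10.0, without its coordinates. No sequence was available for printing.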

Additional observations from a re-analysis of the deposited data

How the results depend on the processing

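Counting only isoforms with a relative weight of 1 left 12 members with at least 2 isoforms (25 as reported), a median of 1 isoform per member (4 as reported, with a mean of 8.67), 5 members with at least 2 separate first exons (15 as reported; 22.2% of all genes) and 28 other pathway genes with at least 2 isoforms (53 as reported). Over all annotated genes the same restriction gave a median of 1 and left 36% with at least 2. It left 20 isoforms of tcf7l2, 3 of dvl3 and 0 of ctnnb1. First exons used by at least 2 transcripts gave 4 members with several, tcf7l2, tcf7l1, dvl3 and ctnnb1, against 27.2% of all genes. In tcf7l1 and ctnnb1, only 1 of these first exons was longer than 8 bases. Without the class that overlaps annotated exons otherwise, 5 members, not 3, had no assembled isoform, with fzd1 and fzd7 added, against 12.7% of all genes. A skipped exon with 2 transcripts each way was found in 9 members, not 15, against 36% of all genes. Without transcripts that have a terminal exon of at most 11 bases, an alternative chosen after seeing the data, tcf7l2 had 75 isoforms, ctnnb1 23 and dvl3 18. The cause of these shifts was not tested. The other alternatives run left each count and median within 1.5 times its reported value and the share of skipped exons divisible by 3 within its interval. No paired analysis was possible because the catalogue has no value per library. How far depth limits the catalogue is unknown, since the files used hold no read counts.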
